A study of Mus musculus with 38 samples.

Results

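The genes described here are 10 transcription factor genes of the immediate early class: the FOS family (Fos, Fosb, Fosl1, Fosl2), the JUN family (Jun, Junb, Jund), the zinc finger genes Egr1 and Egr3, and Atf3. They were chosen by name, and all 10 were found among the 55487 Ensembl genes of the deposited count tables. The 38 mouse RNA-seq libraries formed 18 groups, made to compare low oxygen, contact with glioma cells and a histone deacetylase inhibitor. Normoxia was 21% oxygen and hypoxia was below 0.1% oxygen, each for 16 h. The first experiment used BV2 (an immortalised mouse microglial line), GL261 (a mouse glioma line stably carrying the plasmid pEGFP-N1) and primary bone marrow-derived macrophages (BMDM) of wild-type mice. Each was cultured alone, and GL261 cells were also grown in direct contact with BV2 cells (2 GL261 cells per BV2 cell) or with BMDM (1 GL261 cell per BMDM). Groups had 2 libraries each, except for 3 in the co-cultured BMDM at either oxygen level. The second experiment gave BV2 and BMDM either DMSO in normoxia, DMSO in hypoxia, or 10 nM panobinostat in hypoxia, with 2 libraries per group. There was no normoxic panobinostat group, so a panobinostat difference here is always a difference within hypoxia. All cells were fixed in 3% glyoxal before RNA was taken, and how co-cultured cells were separated is not given in the sources used here. BV2 and GL261 are each 1 cell line, and whether the BMDM libraries came from separate mice is not given in the sources used here, so p-values measure the spread between these libraries.

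Products of the FOS and JUN families pair through leucine zippers to form activator protein 1 (AP-1), which binds DNA and drives transcription. Their transcripts, with those of the EGR genes, appear within minutes of growth factor, stress or cytokine signals because the proteins that switch them on are already present and need only be phosphorylated. JUN proteins can pair with each other, whereas FOS proteins need a JUN partner, and ATF3 is a stress-induced relative that can pair with JUN proteins. In microglia and macrophages these genes are known for their response to inflammatory and mechanical stimuli, including tissue handling, and in glioma cells for their response to growth factors.

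Totals per library were 13548843 to 27238933 counts for BV2 and GL261, 9909367 to 17000536 for BMDM in the first experiment and 9634700 to 15869246 in the second. Levels are counts scaled to the library total (CPM) and normalised within each cell type and experiment, so levels set across cell types or experiments were normalised separately. In the first experiment the myeloid and glial markers followed the labels. The summed CPM of 10 myeloid genes was 3417 to 4831 in BV2, 8243 to 20406 in BMDM and 4.79 to 44.9 in GL261. For 10 glial and glioma genes the sum was 2599 to 4646 in GL261, 0.857 to 76.5 in BV2 and 151 to 349 in BMDM. BMDM monocultures held 151 to 284 of these. Fibroblast and stromal genes summed to 382 to 567 in GL261. The BMDM libraries of the second experiment stood apart. Fibroblast and stromal markers summed to 62.1 to 549 CPM in BMDM of the first experiment but to 19779 and 19364 in DMSO normoxia, 2585 and 13319 in DMSO hypoxia, and 8624 and 14066 with panobinostat. Myeloid markers in the same libraries were 28297 and 19450, 3538 and 11560, and 1215 and 5556. The myeloid sum thus differed between the replicates of both hypoxic groups, with DMSO and with panobinostat, and the first DMSO hypoxia library held the lowest stromal sum. Results in those BMDM are therefore given by library, with and without that library where it decides a value. In bulk RNA, fewer cells of a type and less RNA per cell cannot be told apart.

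RefSeq (GRCm38.p6) held a promoter for 7 of the 10 members. The 5 shown are those with a match to either of 2 motifs that these factors or their activators are known to bind, so they were picked by sequence and not by response, and those of Jun and Jund had no such match. Each sequence below is the 250 bases before the RefSeq start, 5′ to 3′ on the gene's strand, and position -1 is the last base. Capitals mark the half-site of the cyclic AMP response element, TGACG on either strand (CGTCA when read on the other), and the EGR site GCGNGGGCG on either strand. The half-site was added to the search after the sequences had been seen.
Fos, chr12:85473640-85473889, plus strand: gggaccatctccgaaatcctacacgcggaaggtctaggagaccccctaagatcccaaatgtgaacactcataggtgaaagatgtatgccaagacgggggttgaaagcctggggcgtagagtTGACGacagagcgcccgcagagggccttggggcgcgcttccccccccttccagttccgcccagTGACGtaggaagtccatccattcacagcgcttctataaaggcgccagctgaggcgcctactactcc
Fosb, chr7:19310046-19310295, minus strand: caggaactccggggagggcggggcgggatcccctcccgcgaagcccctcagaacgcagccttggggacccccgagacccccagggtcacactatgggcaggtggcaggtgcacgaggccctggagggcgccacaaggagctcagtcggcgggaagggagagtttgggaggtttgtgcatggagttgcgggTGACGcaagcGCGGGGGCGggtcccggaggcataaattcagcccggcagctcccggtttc
Fosl2, chr5:32136222-32136471, plus strand: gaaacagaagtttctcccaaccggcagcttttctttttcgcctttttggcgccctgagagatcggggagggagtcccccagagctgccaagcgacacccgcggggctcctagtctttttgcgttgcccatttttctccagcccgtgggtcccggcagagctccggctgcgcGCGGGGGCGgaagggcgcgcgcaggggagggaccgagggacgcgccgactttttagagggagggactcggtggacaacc
Junb, chr8:84978749-84978998, minus strand: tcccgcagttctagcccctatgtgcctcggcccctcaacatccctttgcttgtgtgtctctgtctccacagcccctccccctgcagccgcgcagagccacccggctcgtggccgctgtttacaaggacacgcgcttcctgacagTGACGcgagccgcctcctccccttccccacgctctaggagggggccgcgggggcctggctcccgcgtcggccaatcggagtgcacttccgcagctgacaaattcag
Atf3, chr1:191183334-191183583, minus strand: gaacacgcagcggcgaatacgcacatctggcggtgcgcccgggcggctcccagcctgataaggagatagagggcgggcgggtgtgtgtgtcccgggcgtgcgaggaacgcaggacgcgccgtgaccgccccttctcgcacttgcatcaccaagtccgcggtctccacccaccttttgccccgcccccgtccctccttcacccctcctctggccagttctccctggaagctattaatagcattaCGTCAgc

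The half-site was present in 4 of the 7 member promoters: in Fos at -129 to -125 and -66 to -62, in Fosb at -60 to -56, in Junb at -106 to -102, and in Atf3 at -7 to -3 on the other strand. Across 32851 promoters of the same length, 17.8% held it. An EGR site was present in 2 of 7, Fosl2 at -79 to -71 and Fosb at -50 to -42, against 4.7% of all promoters. The hypoxia response core ACGTG was present in 1 of 7, Jund, against 16.6% of all promoters. The Jund window, chr8:70697489-70697738, does not adjoin the start of the gene model given below, at 70698949. The windows of Atf3 and Fosl2 lie inside their gene models. None of the 7 windows held the full element TGACGTCA (1.55% of all promoters), the AP-1 site TGACTCA (4.46%) or the serum response element's CArG box (1.47%), and all motifs were searched on both strands. These matches describe the letters in these windows and were not tested for binding.

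In GRCm38 coordinates with GENCODE M21 gene models, Fos (ENSMUSG00000021250) lies at chr12:85473890-85477273, Fosb (ENSMUSG00000003545) at chr7:19302696-19310051, Fosl1 (ENSMUSG00000024912) at chr19:5447547-5455946 and Fosl2 (ENSMUSG00000029135) at chr5:32135801-32157842. Jun (ENSMUSG00000052684) lies at chr4:95049034-95052222, Junb (ENSMUSG00000052837) at chr8:84974484-84978718 and Jund (ENSMUSG00000071076) at chr8:70698949-70700616. Egr3 (ENSMUSG00000033730) lies at chr14:70077203-70082614 and Atf3 (ENSMUSG00000026628) at chr1:191170296-191218039. Of the exon bases of Fosl1, 57.2% overlap Ccdc85b on the opposite strand, and 52.6% of those of Jund overlap the antisense transcript Gm11175. The overlaps were smaller for Jun (7.28%, with Junos) and Junb (7.52%, with Prdx2). The libraries were stranded, but the strand setting of the counting is not given in the sources used here, so the counts of Fosl1 and Jund carry that uncertainty.

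Hypoxia raised Fosb, Fosl2, Jun, Junb and Atf3 in every cell type of the first experiment, alone and in co-culture. In BV2 monocultures 7 of 10 members were higher and 2 lower at an adjusted p under 0.05 (edgeR's quasi-likelihood test, Benjamini-Hochberg adjusted over all genes of the fit), where 30.9% of all tested genes were higher and 31.0% lower. Their median log2 fold change was 2.25, against 0.00 over all genes. In BV2 from co-culture 7 were higher and 2 lower (35.2% and 32.1% of all genes), with a median of 1.99. Without Egr1, almost absent from BV2 alone, the medians were 2.49 in BV2 alone and 1.66 from co-culture. In GL261 monocultures 9 were higher and none lower (23.2% and 21.4%), with a median of 1.98, and in GL261 from co-culture all 10 were higher (26.8% and 25.6%), with a median of 2.43. In BMDM 7 were higher and none lower both alone (13.3% and 10.6%) and from co-culture (17.5% and 17.3%), with medians of 0.91 and 1.03. The count in BMDM alone was 4 without the first hypoxic or either normoxic library and 5 without the second hypoxic one. The DMSO-treated BV2 of the second experiment gave 7 higher and 2 lower of 9 tested (17.2% and 20.2%), with a median of 2.34. The DMSO-treated BMDM gave none in either direction (0.469% and 0.0134% of all genes), and are described by library further on. Counted over these 8 comparisons, Fosb, Fosl2, Jun, Junb and Atf3 were each higher in 7, Jund in 6, Fos in 5 and Egr1 in 3 of 7 tested, none of them lower in any, while Egr3 was higher in 3 and lower in 3, and Fosl1 higher in 2 and lower in 3.

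**Figure D1:**
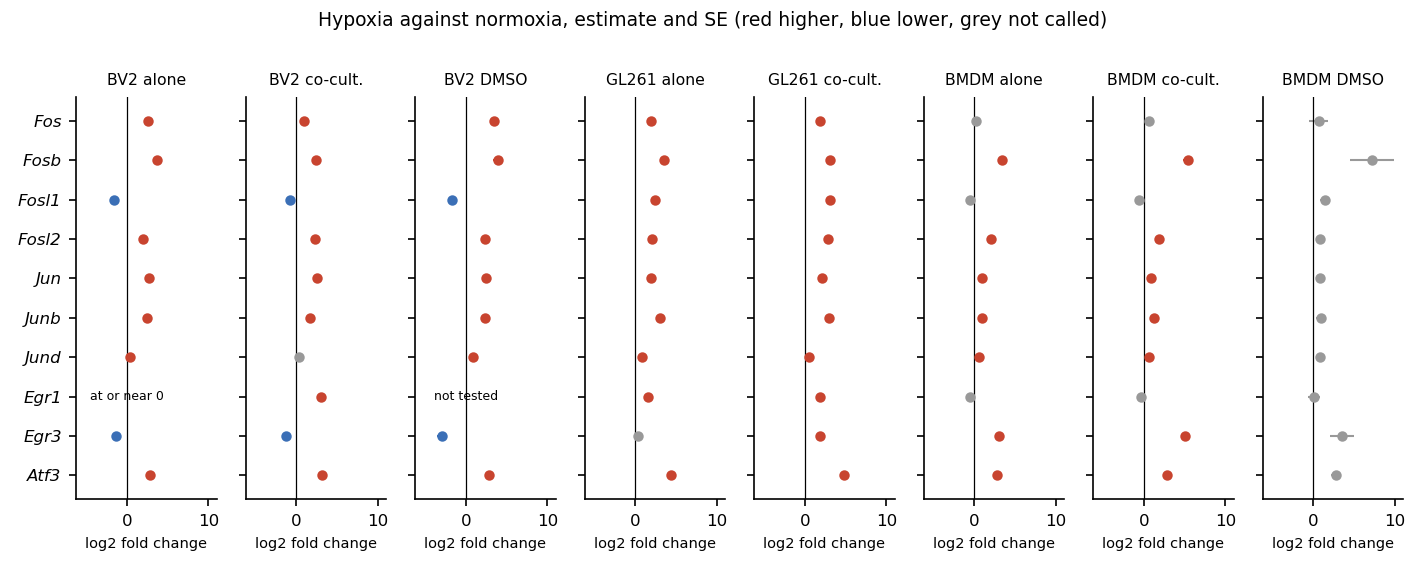
Log2 fold change of each member under hypoxia against normoxia (x axis) in 8 comparisons, with bars of 1 SE; red points were called higher, blue lower and grey not called. Atf3, Fosb, Fosl2, Jun and Junb lie right of 0 in red in every panel but BMDM with DMSO, whereas Fosl1 and Egr3 lie on opposite sides of 0 in different cell types. Egr1 is not drawn for BV2 alone or for BV2 with DMSO.

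Fos, the founding FOS family gene and a common marker of recent stimulation, rose in BV2 and GL261. In BV2 monocultures it stood at 5.02 and 6.68 CPM in normoxia and 34.1 and 33.8 CPM in hypoxia (log2 fold change 2.54, SE 0.19, adjusted p = 9.6e-09). GL261 monocultures held 46.7 and 65.9 CPM in normoxia and 183 and 237 CPM in hypoxia (1.90, SE 0.23, adjusted p = 7.91e-05). The oxygen groups did not overlap in either line, and BV2 in hypoxia stayed below GL261 in normoxia. BMDM differed in their level: 1112 and 924 CPM in normoxia and 1568 and 693 CPM in hypoxia, so that the hypoxic libraries lay on both sides of the normoxic ones (0.15, SE 0.36, adjusted p = 0.805). In co-cultured BMDM Fos was at 635, 584 and 728 CPM in normoxia and 1434, 738 and 959.5 CPM in hypoxia, without overlap. That difference of 0.69 (SE 0.30) did not pass the test (adjusted p = 0.0936), but with the replicate number as a block it was 0.63 and passed (adjusted p = 0.0353), the only member whose call the block changed in that comparison. The rise was also called in co-cultured BV2 (0.98, SE 0.16, adjusted p = 6.55e-05) and GL261 (1.90, SE 0.23, adjusted p = 4.46e-05).

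Fosb, which encodes a FOS protein that also exists as a long-lived truncated form, was nearly silent without hypoxia in BV2. There it was at 0.213 and 0.535 CPM in normoxia (5 and 12 counts) and at 4.90 and 5.16 CPM in hypoxia (13.4-fold, log2 3.74, SE 0.45, adjusted p = 2.02e-06). In GL261 alone it went from 2.97 and 3.58 CPM to 23.7 and 51.7 CPM (3.52, SE 0.33, adjusted p = 1.67e-05). BMDM alone held 20.1 and 22.0 CPM in normoxia and 246 and 211 CPM in hypoxia, a 10.8-fold difference (3.44, SE 0.57, adjusted p = 0.00208). Every hypoxic library exceeded every normoxic one in all 3 cell types. The fold was larger in co-cultured BMDM, 40.9 (5.36, SE 0.51, adjusted p = 4.54e-05), with 9.45, 4.49 and 11.2 CPM in normoxia and 589.6, 145 and 287 CPM in hypoxia. Its 3 hypoxic libraries spanned a wide range, and the difference between the hypoxia effects with and without GL261 cells was not called in BMDM. Fosb also rose in co-cultured BV2 (2.44, SE 0.35, adjusted p = 1.25e-05) and co-cultured GL261 (3.05, SE 0.32, adjusted p = 2.02e-05).

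Fosl1 and Fosl2 encode the FRA proteins, FOS relatives without the strong activation domain of FOS, and they went separate ways. Fosl2 rose in both lines and in BMDM: from 24.4 and 29.6 to 108 and 111 CPM in BV2 alone (2.02, SE 0.12, adjusted p = 1.22e-09), from 93.4 and 98.2 to 457 and 343 CPM in GL261 alone (2.06, SE 0.16, adjusted p = 6.36e-06), and from 70.9 and 72.1 to 239 and 329 CPM in BMDM alone (1.99, SE 0.31, adjusted p = 0.00146). It rose likewise from co-culture in BV2 (2.31, SE 0.12), GL261 (2.81, SE 0.17) and BMDM (1.89, SE 0.25), with adjusted p of 3.73e-10, 5.94e-07 and 0.000281. Fosl1 fell in BV2 alone, from 32.1 and 36.4 CPM to 9.73 and 13.3 CPM (-1.56, SE 0.26, adjusted p = 5.85e-05). In GL261 alone it rose from 1.07 and 0.534 CPM to 5.84 and 2.78 CPM (2.42, SE 0.48, adjusted p = 0.00183), a gain at low levels that in hypoxia still left it below the hypoxic BV2 libraries. BMDM showed neither: 8.38 and 12.3 CPM in normoxia, 7.86 and 6.84 CPM in hypoxia (-0.49, adjusted p = 0.427), and -0.62 (adjusted p = 0.172) from co-culture. In co-cultured BV2 the fall of Fosl1 (-0.81, SE 0.25, adjusted p = 0.0089) rested on the second hypoxic library at 12.1 CPM, since the first was at 27.4 CPM and the normoxic libraries at 35.9 and 33.4 CPM, and without that second library the adjusted p was 0.0614. Co-cultured GL261 had 0.780 and 0.860 CPM in normoxia and 9.40 and 5.10 CPM in hypoxia (3.13, SE 0.49, adjusted p = 0.000267). Ccdc85b, the gene opposite Fosl1, was lower under hypoxia both in BV2 alone (-0.62, adjusted p = 0.00365) and in GL261 alone (-0.73, adjusted p = 0.00423). It thus moved in the direction of Fosl1 in BV2 and in the other direction in GL261. Its means, not scaled between libraries, were 40.3 CPM in normoxia and 25.4 CPM in hypoxia in BV2 alone. In GL261 alone they were 32.2 and 18.9 CPM. Whether reads of Ccdc85b entered the counts of Fosl1 was not tested.

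The JUN family supplies the partner that every AP-1 dimer of a FOS protein needs, and Jun and Junb rose together. Jun was at 86.7 and 99.7 CPM in normoxic BV2 and at 622 and 606 CPM in hypoxic BV2 (6.59-fold, log2 2.72, SE 0.15, adjusted p = 5.61e-10). In GL261 it went from 208 and 215 CPM to 771 and 769.9 CPM (1.87, SE 0.14, adjusted p = 3.84e-06). In BMDM it went from 460.0 and 486 CPM to 923 and 836 CPM (0.89, SE 0.18, adjusted p = 0.00633). The 3 cell types lay closer together in hypoxia than in normoxia, when BMDM were highest and BV2 lowest. Junb, often an antagonist of Jun in growth control, was at 54.1 and 61.3 CPM against 346 and 301 CPM in BV2 (2.49, SE 0.14, adjusted p = 5.4e-10), and at 87.4 and 63.3 CPM against 696 and 510.1 CPM in GL261 (3.00, SE 0.22, adjusted p = 4.32e-06). BMDM already held 907 and 768 CPM of Junb in normoxia and had 1605 and 1568 CPM in hypoxia (0.92, SE 0.24, adjusted p = 0.0195). Their Jun and Junb libraries did not overlap between oxygen levels, yet with groups of 2 the Junb call was lost without any 1 of the 4 libraries (adjusted p 0.0796 to 0.162) and the Jun call without any of 3 of them (adjusted p up to 0.0773). From co-culture Jun rose by 2.48 (SE 0.15) in BV2, 2.05 (SE 0.14) in GL261 and 0.83 (SE 0.15) in BMDM, and Junb by 1.66 (SE 0.13), 3.02 (SE 0.22) and 1.24 (SE 0.20), with adjusted p of 0.00174 or less.

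Jund, the JUN gene known for steady expression in resting cells, showed the smallest called rises. In GL261 alone it was at 319 and 334 CPM in normoxia and 542 and 621 CPM in hypoxia (0.83, SE 0.13, adjusted p = 0.000509). BV2 alone had 172 and 145 CPM in normoxia and 217 and 188 CPM in hypoxia (0.35, SE 0.14, adjusted p = 0.036), a call lost without the first hypoxic or the second normoxic library (adjusted p up to 0.263). In co-cultured BV2 the groups overlapped, 206 and 263 CPM against 304 and 263 CPM (0.27, adjusted p = 0.0899). BMDM alone held 242 and 231 CPM in normoxia and 385 and 328 CPM in hypoxia (0.59, SE 0.15, adjusted p = 0.0162), and the call was lost without any 1 of these 4 libraries (adjusted p 0.0543 to 0.177). In co-cultured BMDM the libraries were 297, 314 and 336 CPM against 515, 475 and 514 CPM (0.67, SE 0.12, adjusted p = 0.00183), and Jund also rose in co-cultured GL261 (0.55, SE 0.13, adjusted p = 0.00494), a call lost without the first normoxic library (adjusted p = 0.0575). The antisense transcript Gm11175 averaged 1.14 to 7.44 CPM per group, and was itself higher under hypoxia in BV2 alone (1.08, adjusted p = 0.0233) but not called in GL261 alone (0.21, adjusted p = 0.603).

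Egr1, a zinc finger activator induced through the serum response factor and one of the first genes to answer mitogens, was almost absent from BV2. The 2 normoxic BV2 monocultures held 1 count each and the 2 hypoxic ones none, which is under the limit of 3 counts in both groups, so no fold is given. GL261 alone had 47.0 and 61.1 CPM in normoxia and 196 and 118 CPM in hypoxia (1.54, SE 0.41, adjusted p = 0.0102), a call lost without the first hypoxic or the first normoxic library (adjusted p up to 0.0855). Co-cultured GL261 had 65.4 and 179.8 CPM against 586 and 335 CPM (1.91, SE 0.41, adjusted p = 0.00233), with normoxic replicates that lay further apart than those of Fos. In BMDM Egr1 was at 235 and 208 CPM in normoxia and 151 and 145 CPM in hypoxia, lower in both hypoxic libraries but short of the threshold (-0.58, SE 0.38, adjusted p = 0.29). Co-cultured BMDM overlapped, with 132, 74.6 and 165 CPM against 112, 53.9 and 117 CPM (-0.39, adjusted p = 0.347).

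Egr3, a relative that binds the same GC-rich site and is itself a target of EGR1 in lymphocytes and neurons, fell in BV2 and rose in BMDM. BV2 alone had 5.14 and 5.93 CPM in normoxia and 1.77 and 2.75 CPM in hypoxia (-1.28, SE 0.27, adjusted p = 0.000524). BV2 from co-culture had 13.3 and 11.5 CPM against 6.18 and 3.91 CPM (-1.29, SE 0.23, adjusted p = 0.000127). BMDM alone had 6.46 and 8.50 CPM in normoxia and 63.6 and 55.3 CPM in hypoxia (7.95-fold, log2 2.99, SE 0.47, adjusted p = 0.00156). No library of 1 oxygen level overlapped the other in these comparisons, and the direction was opposite between the microglial line and the macrophages; that difference was not tested across their separate tables. From co-culture, BMDM had 1.61, 0.727 and 2.22 CPM against 59.5, 21.7 and 61.3 CPM (32.1-fold, log2 5.01, SE 0.45, adjusted p = 3.37e-05). In GL261 alone Egr3 was at 1.18 and 1.07 CPM in normoxia and 1.30 and 1.45 CPM in hypoxia (0.28, SE 0.33, adjusted p = 0.511), whereas from co-culture it was at 1.36 and 1.47 CPM against 5.74 and 4.70 CPM (1.87, SE 0.31, adjusted p = 0.000371). Within BMDM, then, Egr3 rose with hypoxia in both cultures and Egr1 did not pass in either.

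Atf3, a stress gene and a target of the integrated stress response factor ATF4, had the largest hypoxic rises in GL261 of all 10 members. GL261 alone was at 14.0 and 9.23 CPM in normoxia and 278 and 207 CPM in hypoxia (20.8-fold, log2 4.38, SE 0.24, adjusted p = 6.4e-07). From co-culture it was at 9.29 and 8.17 CPM against 284 and 209.5 CPM (28.3-fold, log2 4.82, SE 0.25, adjusted p = 2.69e-07). In BV2 alone it was at 41.3 and 35.7 CPM against 281 and 259 CPM (7.0-fold, log2 2.81, SE 0.14, adjusted p = 1.49e-10). The 2 lines therefore reached similar hypoxic levels, while the normoxic level of GL261 was the lower one. BMDM alone rose from 126 and 173 CPM to 726 and 1347 CPM (6.92-fold, log2 2.79, SE 0.41, adjusted p = 0.00112), and from co-culture BMDM rose from 153, 203 and 89.0 CPM to 1316, 1010.15 and 807 CPM (2.81, SE 0.33, adjusted p = 0.000158). Over the 7 comparisons in which Atf3 was called, its log2 fold change was 2.79 to 4.82.

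**Figure D2:**
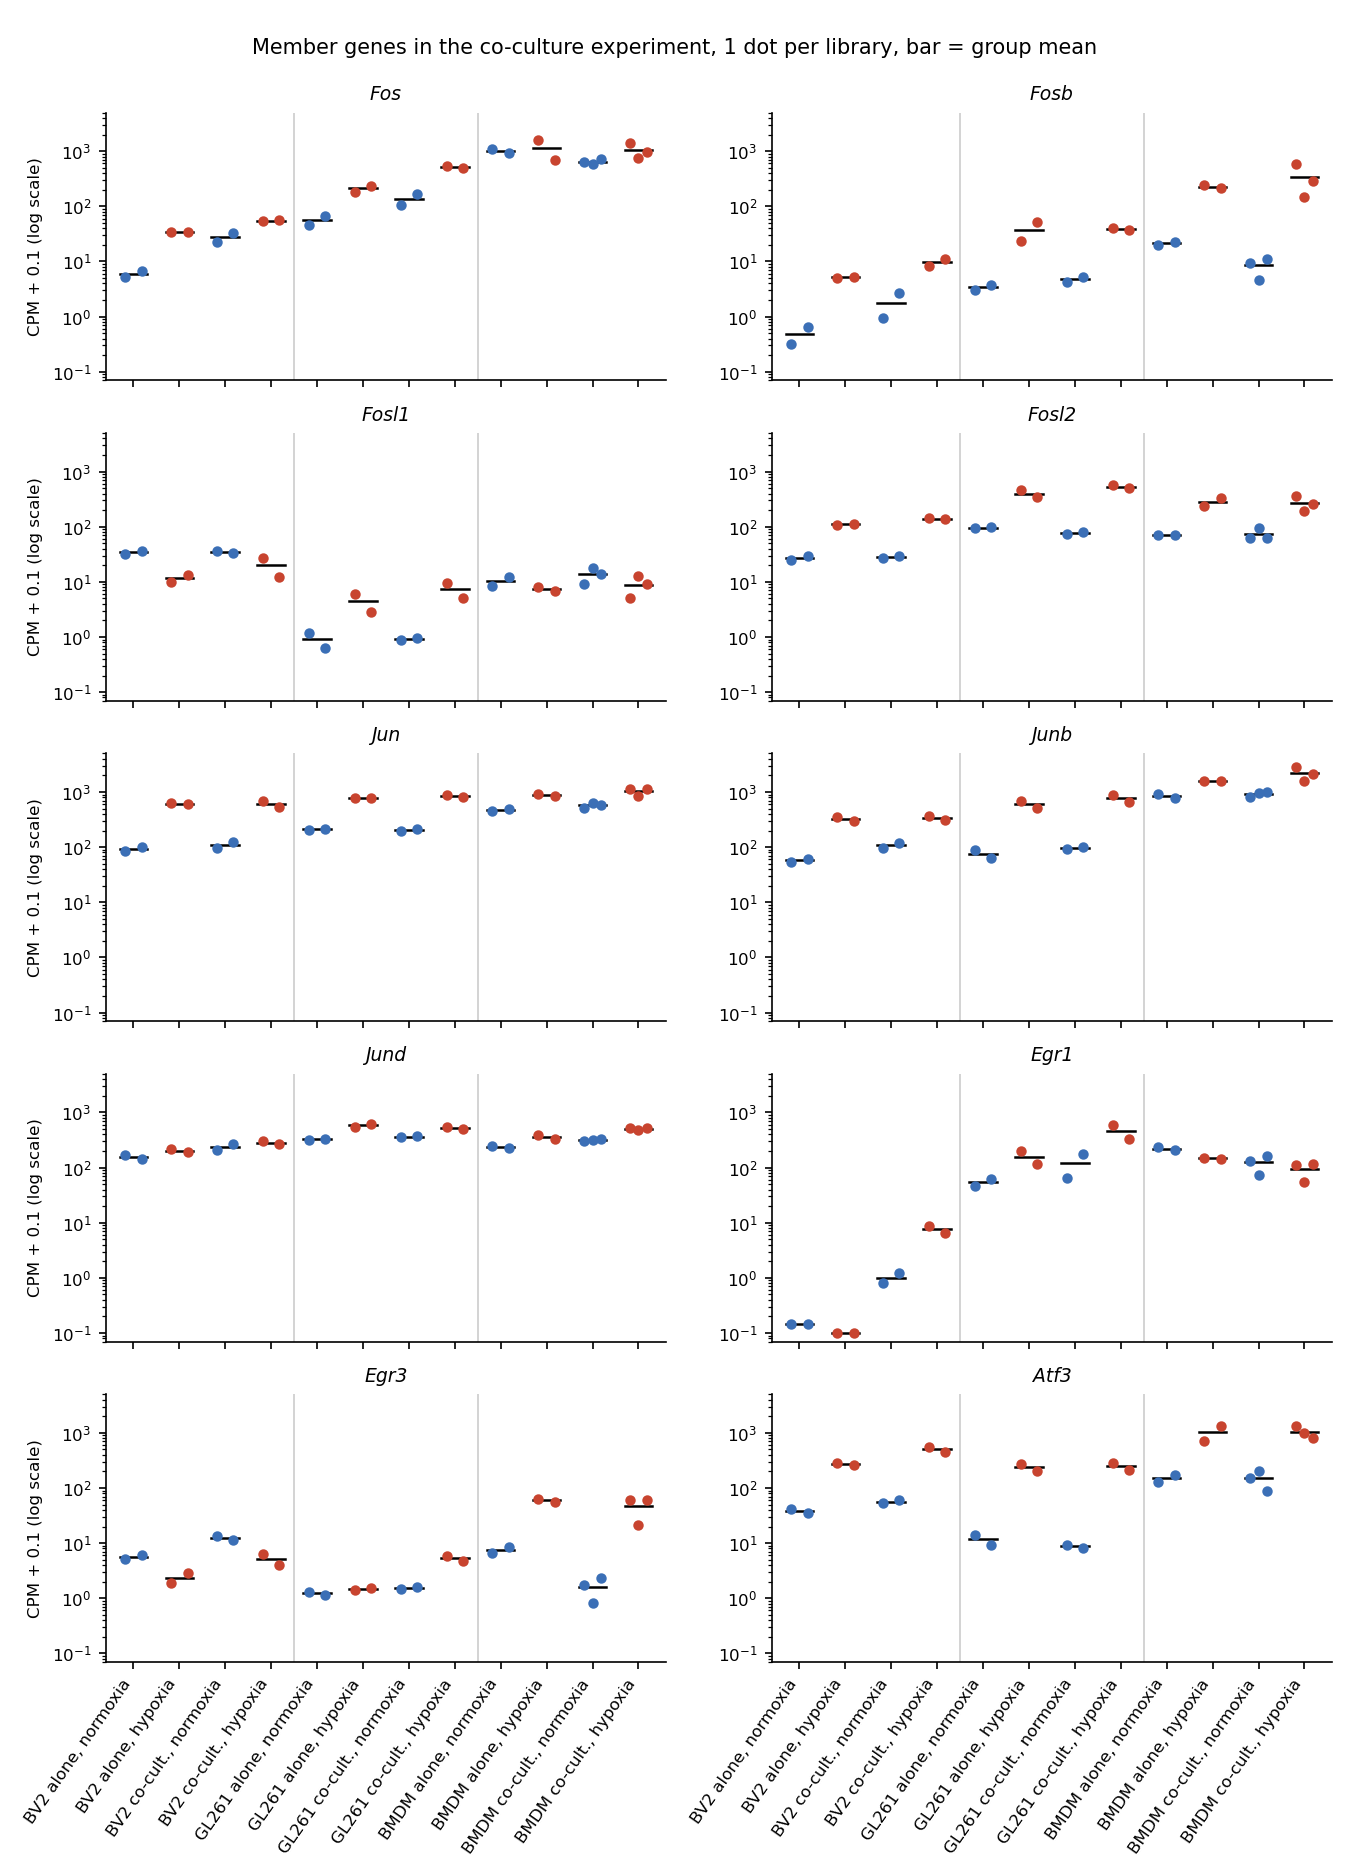
Level of each member in every library of the first experiment, as CPM + 0.1 on a log axis, by cell type, culture and oxygen level; each point is 1 library. Atf3, Fosb, Fosl2, Jun and Junb step up with hypoxia in BV2, GL261 and BMDM alike, and Egr1 sits at the bottom of its panel in BV2 alone.

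The hypoxia effect itself was compared between the lines in 1 fit of all BV2 and GL261 libraries, since a call in 1 line and not the other is not a difference. Of the 10 members 4 differed between the monocultures of BV2 and GL261, against 37.4% of all tested genes, so the share is near the background. Fosl1 differed most, by -3.90 (SE 0.60, adjusted p = 5.05e-05), with a fall in BV2 and a rise in GL261. Atf3 rose less in BV2, by -1.47 (SE 0.27, adjusted p = 0.000258), and Egr3 differed by -1.46 (SE 0.44, adjusted p = 0.0129), which was lost without the first hypoxic BV2 monoculture (adjusted p = 0.0606). Jun rose more in BV2, by 0.95 (SE 0.20, adjusted p = 0.000993), against a median of 0.15 over all genes in this comparison. Not passing were Fos (0.74, adjusted p = 0.079), Fosb (0.32), Fosl2 (0.06), Junb (-0.42) and Jund (-0.38), and Egr1, without counts in hypoxic BV2, has no usable value here.

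Fos, Fosb, Jund, Egr3 and Atf3 were higher in BV2 from glioma co-culture than in BV2 alone at both oxygen levels, and Junb in normoxia. Contact is used below for co-culture as a whole. Since the separation of the cells is not described, its effects and those of contact itself cannot be told apart here. In normoxia 7 of 10 members were higher in BV2 from co-culture than in BV2 alone and none lower, against 5.77% of all tested genes higher and 9.14% lower. In hypoxia 6 were higher and none lower, against 8.13% and 7.57%. Both counts include Egr1, whose level is set beside the partner RNA further on. The normoxic count was 4 without the second co-culture library. The hypoxic count was 3 without the first co-culture or the second monoculture library, 2 without the first monoculture library, and 3 after the partner RNA measured below was subtracted with the co-culture profile. Fos went from 5.02 and 6.68 CPM alone to 22.1 and 33.3 CPM in normoxic co-culture (4.77-fold, log2 2.25, SE 0.19, adjusted p = 2.94e-06). In hypoxia it went from 34.1 and 33.8 CPM to 54.0 and 55.8 CPM (0.69, SE 0.16, adjusted p = 0.00722). Fos in normoxic co-culture thus stood close to its level in hypoxic monoculture. Co-culture and hypoxia together gave less than the sum of their log2 changes. The test of that shortfall is given with the interactions.

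The other members of BV2 moved less. Junb rose in normoxic contact from 54.1 and 61.3 CPM to 98.4 and 117 CPM (0.90, SE 0.13, adjusted p = 0.000647) but stood at 346 and 301 CPM alone and 375 and 308 CPM in contact under hypoxia (0.08, adjusted p = 0.748). Egr3 rose at both oxygen levels: in normoxia from 5.14 and 5.93 CPM to 13.3 and 11.5 CPM (1.16, SE 0.22, adjusted p = 0.00397), and in hypoxia from 1.77 and 2.75 CPM to 6.18 and 3.91 CPM (1.15, SE 0.27, adjusted p = 0.00824). The hypoxic Egr3 call was lost without the first co-culture or the first monoculture library (adjusted p up to 0.134). Atf3 rose in hypoxic contact from 281 and 259 CPM to 557 and 455 CPM (0.91, SE 0.13, adjusted p = 0.000117) and less in normoxia, from 41.3 and 35.7 CPM to 53.5 and 60.0 CPM (0.56, SE 0.13, adjusted p = 0.011). The normoxic Atf3 call was lost without the second co-culture or the second monoculture library (adjusted p up to 0.149). Jund was higher by 0.56 (SE 0.14, adjusted p = 0.0133) and 0.48 (SE 0.14, adjusted p = 0.0248), calls that were lost without 2 and 3 of the 4 libraries respectively (adjusted p up to 0.190 and 0.236). Jun, the partner of Fos, was not higher in contact in either case, with log2 differences of 0.24 (adjusted p = 0.283) and 0.00 (adjusted p = 0.997), and Fosl2 was at 0.05 and 0.34 (adjusted p = 0.0575 in hypoxia). Fosl1 was at 0.02 (adjusted p = 0.971) and 0.77 (adjusted p = 0.0585).

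**Figure D3:**
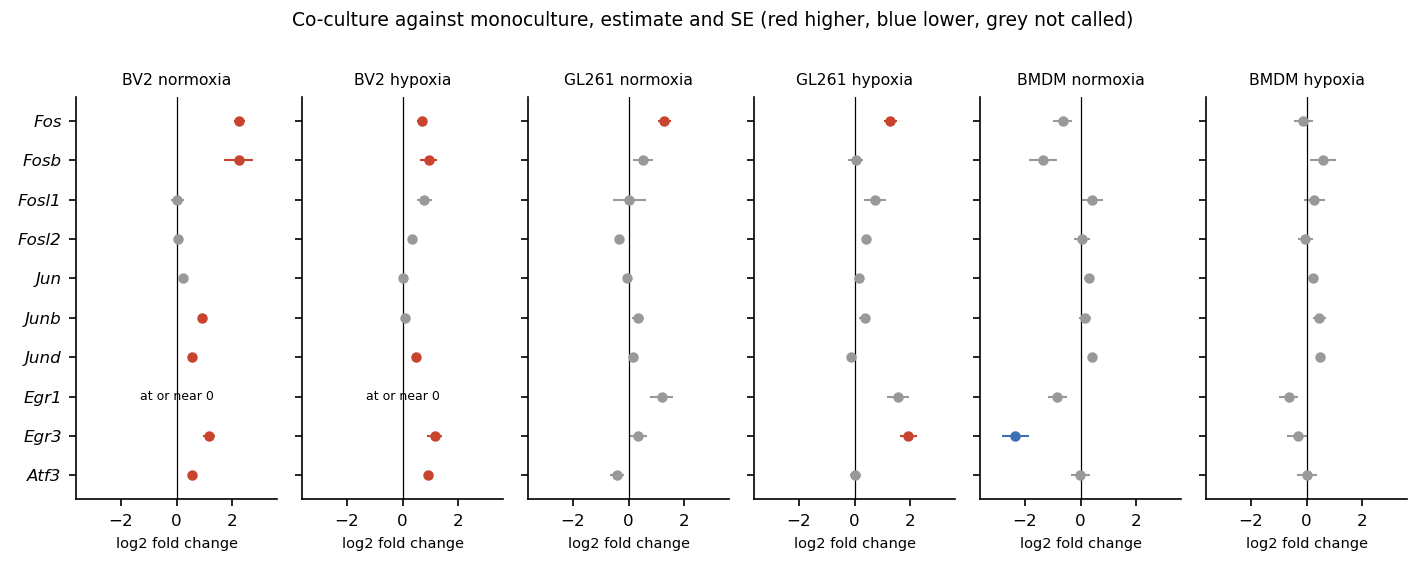
Log2 fold change of each member in co-culture against monoculture (x axis) by cell type and oxygen level, with bars of 1 SE; red points were called higher, blue lower and grey not called. The red points are mostly in BV2, where 7 and 6 members were called, against 1 and 2 in GL261. Egr1 is among those called in BV2 but is not drawn there. The label in its place describes its level in BV2 alone and not its fold change.

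RNA of the partner cell was measured beside these values, because Fos, Fosb and Egr1 were each at least 4-fold higher in GL261 alone than in BV2 alone. The share of GL261 RNA in the BV2 libraries, from 218 genes specific to GL261, was 0.953% and 0.568% in normoxic co-culture and 2.06% and 2.36% in hypoxic co-culture, against at most 0.0523% in a BV2 monoculture. Egr1 was at 0.738 and 1.15 CPM (not scaled between libraries) in normoxic and 8.43 and 6.20 CPM in hypoxic BV2 from co-culture. The share multiplied by the Egr1 level of co-cultured GL261 was 1.17 and 0.699 CPM, and 9.04 and 10.4 CPM. Multiplied by the level of GL261 alone it was 0.536 and 0.319 CPM, and 3.2 and 3.67 CPM. The measured Egr1 thus lay below the product with the co-culture level in both hypoxic libraries and in the first normoxic one. It lay above that product in the second normoxic library, and above the product with the monoculture level in all 4 libraries. By counts, Egr1 had 31 against 2 counts in normoxia, a ratio of 22.2 (95% exact interval 5.65 to 192, counting error only), and 266 against 0 in hypoxia, at least 88.2-fold (3 counts over the group). The rise of Egr1 under hypoxia in co-cultured BV2 (3.02, SE 0.33, adjusted p = 1.07e-06) belongs to the same libraries, and after subtraction of the partner share with the co-culture profile Egr1 no longer passed the filter on low counts and gave no value. After subtraction with the monoculture profile Egr1 stayed called for contact in normoxia (adjusted p = 0.0479) and in hypoxia (adjusted p = 0.00026), and for hypoxia in co-culture (2.92, adjusted p = 0.000185).

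For Fos the product was 1.31 and 0.781 CPM in normoxia, against 23.6 and 34.2 CPM measured, and 10.1 and 11.6 CPM in hypoxia, against 52.4 and 54.0 CPM measured. Subtracting it left the normoxic rise of Fos at 2.24 (adjusted p = 0.00011) and that in hypoxia at 0.42 (adjusted p = 0.141), which no longer passed. Without subtraction the hypoxic Fos call was also lost without any of 3 of its 4 libraries (adjusted p up to 0.0566). Fosb was measured at 0.886 and 2.63 CPM in normoxia and 8.05 and 10.5 CPM in hypoxia, and the product was 0.0442 and 0.0264 CPM, and 0.759 and 0.870 CPM. Its rise in contact was 2.24 (SE 0.52, adjusted p = 0.0102) in normoxia, lost without the second co-culture or the first monoculture library (adjusted p up to 0.280), and 2.25 (adjusted p = 0.025) after subtraction. In hypoxia its rise of 0.93 (SE 0.30, adjusted p = 0.0462) was lost without any 1 of the 4 libraries (adjusted p 0.0524 to 0.283) and after subtraction (0.86, adjusted p = 0.109). Junb, which was not partner-high, stayed at 0.93 (adjusted p = 0.0043) in normoxia. The subtraction with the co-culture profile was chosen after the data were seen.

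**Figure D4:**
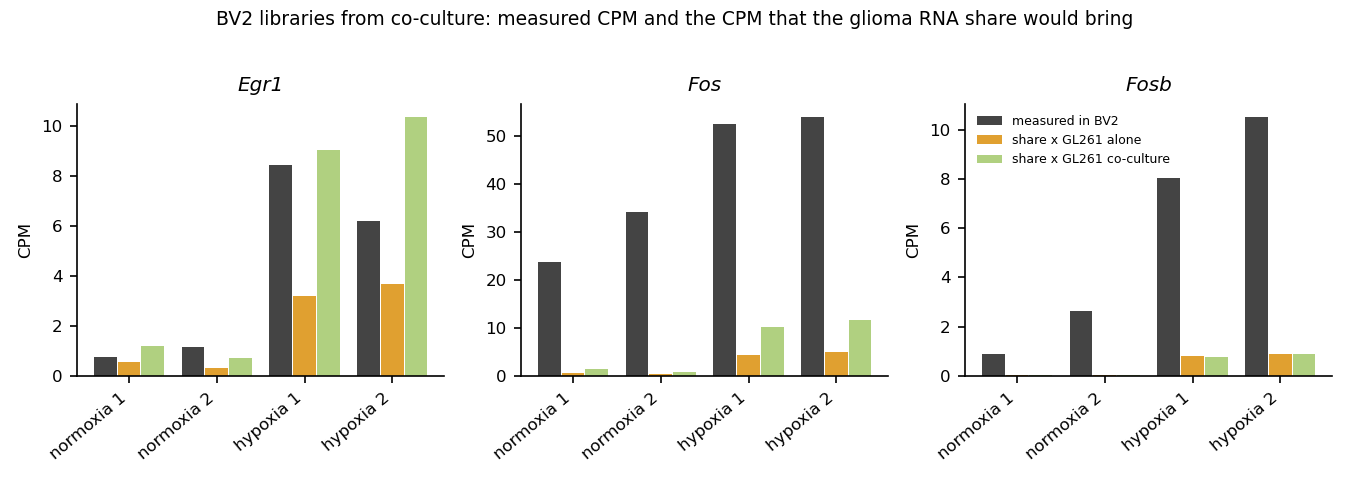
Measured CPM of Egr1, Fos and Fosb in the 4 BV2 libraries from co-culture (dark bars), beside the GL261 RNA share times their level in GL261 alone (orange) or in co-cultured GL261 (green). For Egr1 the dark bars, up to 8.43 CPM, lie near the green ones, up to 10.4 CPM, and above the orange ones, up to 3.67 CPM, while for Fos and Fosb the dark bars stand well above both.

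In GL261 the same contact gave few calls among the members, Fos at both oxygen levels and Egr3 in hypoxia, each lost without at least 1 library. Fos was higher in normoxic co-culture, 107 and 167 CPM against 46.7 and 65.9 CPM alone (1.29, SE 0.23, adjusted p = 0.0322), the 1 member called of 10, where 0.323% of all genes were higher and 0.191% lower. That call was lost without any 1 of its 4 libraries (adjusted p 0.0600 to 0.309), after subtraction of the partner share with either profile (1.30, adjusted p = 0.06), without genes high in BV2 (adjusted p = 0.0587) and with a minimum mean CPM of 5 (adjusted p = 0.0826). In hypoxia 2 members were higher and none lower, against 0.889% and 0.5%. Fos was at 532 and 492 CPM against 183 and 237 CPM (1.28, SE 0.22, adjusted p = 0.0214), lost without any of 2 libraries (adjusted p up to 0.0583). Egr3 was at 5.74 and 4.70 CPM against 1.30 and 1.45 CPM (3.8-fold, log2 1.93, SE 0.30, adjusted p = 0.011), lost without the first co-culture library (adjusted p = 0.0632). Egr1 was higher in all co-culture libraries than in the monocultures of the same oxygen level but did not pass (1.18, adjusted p = 0.405, and 1.55, SE 0.41, adjusted p = 0.0953). The share of BV2 RNA in these libraries was 0.207% to 0.915%, and Fosl1, not called in either comparison, was the only member at least 4-fold higher in BV2. The log2 changes of Fos were of like size at both oxygen levels, 1.29 and 1.28. Also not called were, in normoxia and hypoxia, Fosb (0.50 and 0.04), Fosl1 (0.02 and 0.73), Fosl2 (-0.34 and 0.42), Jun (-0.04 and 0.15), Junb (0.34 and 0.36), Jund (0.15 and -0.13) and Atf3 (-0.42 and 0.03), and Egr3 in normoxia (0.34).

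BMDM in contact with glioma cells had no member higher. Egr3 was the 1 member lower in normoxia, against 1.57% of all genes higher and 0.0675% lower, at 1.61, 0.727 and 2.22 CPM against 6.46 and 8.50 CPM alone (-2.34, SE 0.48, adjusted p = 0.0393). The libraries did not overlap, but the call was lost without any 1 of the 5 (adjusted p 0.0637 to 0.264), after subtraction of the partner share with either profile (adjusted p = 0.112), without genes high in GL261 (adjusted p = 0.143) and with a minimum mean CPM of 5 (adjusted p = 0.0803). Fosb (-1.34, adjusted p = 0.268), Egr1 (-0.84, adjusted p = 0.315) and Fos (-0.65, adjusted p = 0.439) had negative estimates that did not pass, and the other members lay between -0.01 for Atf3 and 0.42 for Jund, with Jun at 0.29, Junb at 0.15, Fosl1 at 0.41 and Fosl2 at 0.05. In hypoxia no member passed by edgeR, against 4.06% of genes higher and 3.05% lower. At an unadjusted p under 0.05 there was 1 member of 10, against 3528 of 14806 genes, and DESeq2 called 1. Jund came nearest (0.49, adjusted p = 0.0566), followed by Junb (0.46, adjusted p = 0.236) and Egr1 (-0.65, adjusted p = 0.274), while Fos was at -0.12, Fosb at 0.58, Fosl1 at 0.28, Fosl2 at -0.05, Jun at 0.22, Egr3 at -0.33 and Atf3 at 0.01. GL261 RNA made up 1.27% to 6.38% of the co-cultured BMDM libraries, and no member was 4-fold higher in GL261 than in BMDM. Beside the rise of Fos in BV2 and GL261, these estimates lie lower, but the cell types were not compared in 1 test.

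The hypoxia effect with contact was also tested against that without. In BV2 2 members had a smaller rise in co-culture and none a larger one, against 2.19% of all genes that differed in either direction. These were Fos, by -1.56 (SE 0.25, adjusted p = 0.00881), and Junb, by -0.82 (SE 0.19, adjusted p = 0.0353). Both kept their call after the partner share was subtracted (-1.82, adjusted p = 0.0103, and -0.87, adjusted p = 0.0458), while Junb lost it without any of 4 of the 8 libraries (adjusted p up to 0.153). Not called were Fosb (-1.30, SE 0.61, adjusted p = 0.248), Fosl1 (0.76), Fosl2 (0.29), Jun (-0.24), Jund (-0.08), Egr3 (-0.01) and Atf3 (0.35), and Egr1 has no usable value without counts in hypoxic BV2 alone. In GL261 and in BMDM no member and no gene of the whole table differed (0% and 0%) by edgeR. The members lay between -0.47 for Fosb and 1.59 for Egr3 in GL261, and between -0.14 for Fosl1 and 2.01 for Egr3 in BMDM, where Fosb was at 1.92. In each of them 2 members had an unadjusted p under 0.05, a count given without a share of all genes, and DESeq2 called none.

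The second experiment gave the hypoxic response of BV2 again, in separate libraries with DMSO. Fos went from 2.38 and 3.69 CPM to 34.8 and 33.0 CPM (3.47, SE 0.41, adjusted p = 0.000379), and Fosb from 0.298 and 0.696 CPM to 9.98 and 5.68 CPM (3.94, SE 0.63, adjusted p = 0.00145). Fosl2 (2.31, SE 0.20), Jun (2.47, SE 0.22), Junb (2.34, SE 0.23) and Atf3 (2.79, SE 0.21) rose with adjusted p between 6.32e-05 and 0.000169, and Jund by 0.93 (SE 0.22, adjusted p = 0.00904). Fosl1 fell from 66.0 and 29.6 CPM to 18.8 and 10.7 CPM (-1.70, SE 0.40, adjusted p = 0.00813), and Egr3 from 2.90 and 4.73 CPM to 0.236 and 0.747 CPM (-2.92, SE 0.59, adjusted p = 0.00416). The calls of Fosl1 (adjusted p = 0.0737 without the first normoxic library) and Jund (0.0806 without the first hypoxic one) each rested on 1 library. All 9 tested members had the direction seen in BV2 alone, and Egr1 again failed the filter, with 6 and 1 counts in normoxia and 6 and 13 in hypoxia.

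Panobinostat, which blocks removal of acetyl groups from histones, raised Fos and Junb in hypoxic BV2. The comparison shares its DMSO hypoxia libraries with the one just described. Fos stood at 34.8 and 33.0 CPM with DMSO and at 111 and 256 CPM with panobinostat (5.41-fold, log2 2.44, SE 0.36, adjusted p = 0.00425), so that both treated libraries were above every other BV2 library of either experiment. Junb stood at 318 and 313 CPM against 628 and 598 CPM (1.94-fold, log2 0.96, SE 0.22, adjusted p = 0.0206), a call lost without any 1 of the 4 libraries (adjusted p 0.0788 to 0.170). These 2 of 9 tested members compare with 7.21% of all genes higher, and no member was lower, against 7.39% of all genes. Not passing were Fosb at 9.98 and 5.68 CPM against 11.2 and 29.9 CPM (1.40, SE 0.47, adjusted p = 0.0747), Egr3 at 0.236 and 0.747 CPM against 1.29 and 2.02 CPM (1.73, SE 0.62, adjusted p = 0.0877), Fosl1 at 18.8 and 10.7 CPM against 6.93 and 5.12 CPM (-1.29, SE 0.41, adjusted p = 0.0636) and Jund at 574 and 466 CPM against 311 and 327 CPM (-0.70, SE 0.22, adjusted p = 0.0581).

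The groups of these 4 genes did not overlap, but the share of all genes without overlap is not given here. Their calls depended on the fit. The counts with the block and with DESeq2 also stand without a share of all genes. With the replicate number as a block 6 members passed: Fos (2.32, adjusted p = 5.52e-08), Junb (0.96, adjusted p = 0.00129), Fosb (1.26, adjusted p = 0.00715), Egr3 (1.76, adjusted p = 0.018), Fosl1 (-1.25, adjusted p = 0.000257) and Jund (-0.70, adjusted p = 0.0151). DESeq2 called 5, adding Fosb, Fosl1 and Jund. Jun, Fosl2 and Atf3 had small estimates: Jun was at 544 and 516 CPM against 526 and 644 CPM (0.14), Fosl2 at 186 and 157 CPM against 158 and 166 CPM (-0.08), and Atf3 at 287 and 257 CPM against 195 and 233 CPM (-0.35, adjusted p = 0.264). Egr1 was at 0 counts in both panobinostat libraries.

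**Figure D5:**
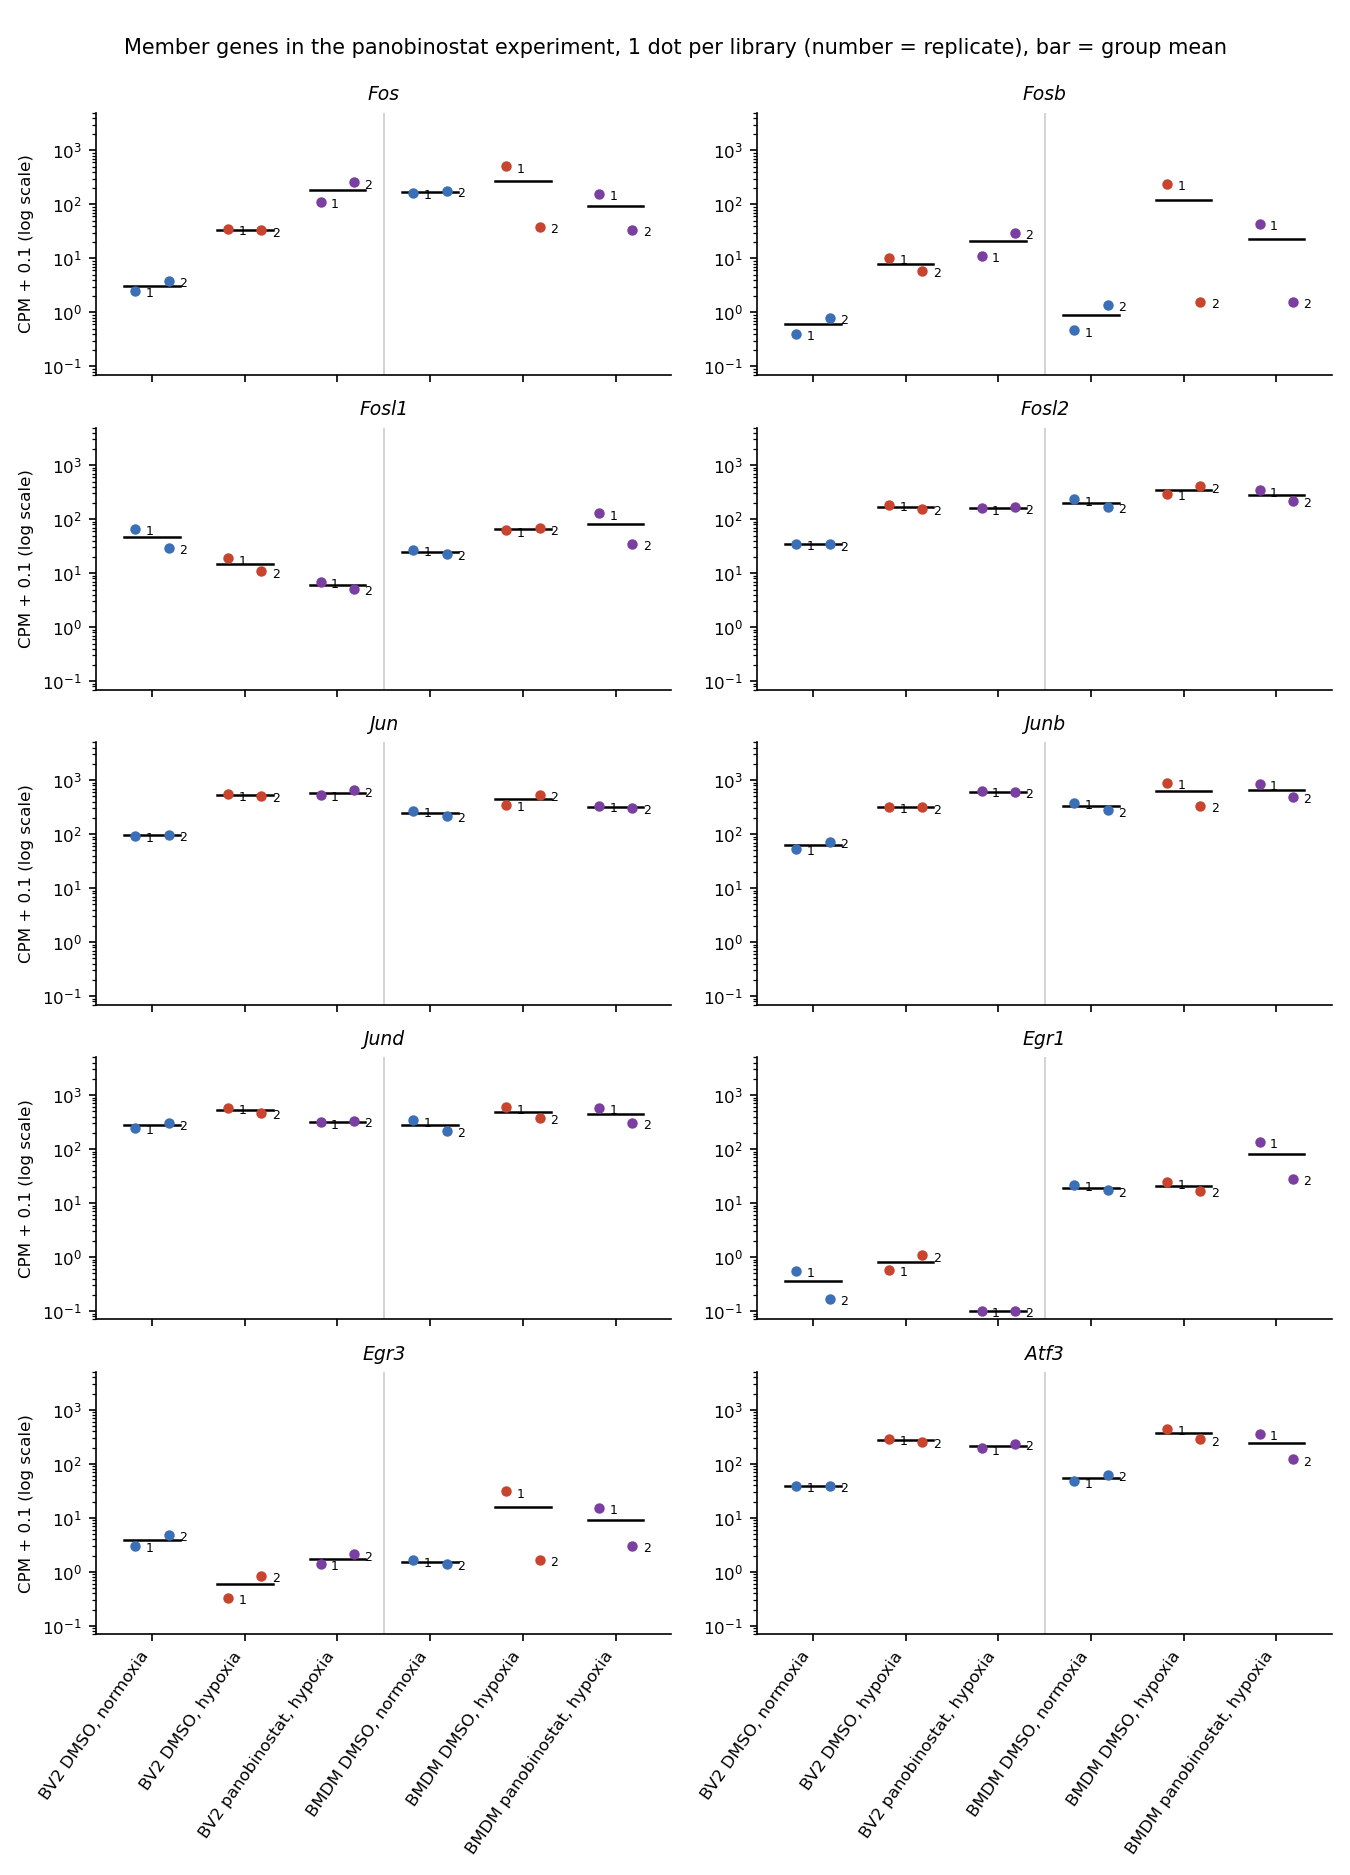
Level of each member in every library of the second experiment, as CPM + 0.1 on a log axis, for BV2 and BMDM with DMSO in normoxia, DMSO in hypoxia and panobinostat in hypoxia; each point is 1 library. In BV2 the panobinostat points of Fos, at 111 and 256 CPM, lie above both DMSO groups, and in BMDM the 2 hypoxic DMSO points of Fos, Fosb and Egr3 lie far apart.

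In the BMDM of the second experiment the 2 hypoxic DMSO libraries lay far apart. Fosb was at 0.365 and 1.26 CPM in DMSO normoxia, and at 240.1 CPM in the first and 1.44 CPM in the second hypoxic library. Egr3 was at 1.53 and 1.32 CPM in normoxia and at 30.8 and 1.55 CPM in hypoxia. Fos was at 166 and 176 CPM in normoxia and at 504 and 38.4 CPM in hypoxia, above and below both normoxic libraries. The first of these libraries lay within the range of the hypoxic BMDM of the first experiment for Fosb (145 to 589.6 CPM) and Egr3 (21.7 to 63.6 CPM), and the second lay near the normoxic libraries of its own experiment. Atf3 was at 449.6 and 284 CPM against 47.2 and 61.9 CPM, without overlap, and did not pass (2.75, SE 0.58, adjusted p = 0.0808). The other estimates were 1.38 for Fosl1, 0.80 for Fosl2, 0.86 for Jun, 0.92 for Junb, 0.80 for Jund and 0.08 for Egr1, with adjusted p of 0.166 or more.

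The stromal sum was 2585 CPM in the first hypoxic DMSO library and 13319 CPM in the second, and the part of this difference in the levels of the members was not tested. By edgeR no member passed, while 4 of 10 had an unadjusted p under 0.05, against 3786 of 14914 genes. DESeq2 called 3 (Fosb, Egr3 and Atf3) and the block called Atf3 alone (2.64, adjusted p = 0.0302). Without the first hypoxic library the estimates were -2.21 for Fos, 0.74 for Fosb, 0.06 for Egr3 and 2.32 for Atf3. Without the second they were 1.56, 8.15, 4.42 and 3.04. Of these 4 only Atf3 kept a like size whichever library was left out. The difference between BV2 and BMDM in the hypoxia effect was called for no member by edgeR (0.664% of all genes). At an unadjusted p under 0.05 there were 5 members, and DESeq2 called 4, counts given without a share of all genes. The nearest were Jun (1.69, adjusted p = 0.0576), Fosl2 (1.58, adjusted p = 0.0838), Fosl1 (-3.01, adjusted p = 0.0992) and Egr3 (-6.38, adjusted p = 0.101), and the others were at 2.86 for Fos, -3.18 for Fosb, 1.48 for Junb, 0.19 for Jund, 1.45 for Egr1 and 0.10 for Atf3.

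Panobinostat in BMDM likewise changed no member by edgeR, nor any other gene (0% higher and 0% lower). At an unadjusted p under 0.05 there was 1 member of 10, against 3868 of 14914 genes, and DESeq2 called 1, Egr1. Egr1 was at 24.0 and 16.5 CPM with DMSO and at 136 and 27.7 CPM with panobinostat (2.01, SE 0.71, adjusted p = 0.151), and without the first panobinostat library the estimate was 0.45. Fos was at 155 and 33.9 CPM with panobinostat, again with the libraries far apart (-1.52, SE 1.18, adjusted p = 0.455). Without the first DMSO hypoxia library the estimate for Fos was 1.33, that for Fosb 3.99 in place of -2.42 and that for Egr3 2.57 in place of -0.85, so the direction of these 3 turned on 1 library. Atf3 was at 366 and 122 CPM (-0.59, adjusted p = 0.535), and the rest were at 0.34 for Fosl1, -0.31 for Fosl2, -0.45 for Jun, 0.11 for Junb and -0.12 for Jund. For the difference between BV2 and BMDM in the panobinostat effect no member passed by edgeR (0.0251% of all genes). At an unadjusted p under 0.05 there were 2 members, and DESeq2 called 1, counts given without a share of all genes. Fos was at 3.96 (SE 1.39, adjusted p = 0.352), Fosb at 3.82, Egr3 at 2.58, Fosl1 at -1.65, Junb at 0.84, Jund at -0.59, Jun at 0.58, Atf3 at 0.23 and Fosl2 at 0.21, and Egr1 has no usable value without counts in treated BV2.

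Ordered by level over all 18 groups, Fos was highest in BMDM alone under hypoxia (1131 CPM) and lowest in BV2 with DMSO in normoxia (3.04 CPM), and Fosb was highest in co-cultured BMDM under hypoxia (340.5 CPM) and lowest in BV2 alone in normoxia (0.374 CPM). Junb (2184 CPM), Jun (1026 CPM) and Atf3 (1044 CPM) were also highest in co-cultured hypoxic BMDM. For all 5 of these genes the libraries of the highest group overlapped those of the next, which was hypoxic BMDM in the other culture. Fosl2 (534 CPM), Egr1 (461 CPM) and Jund (582 CPM) were highest in hypoxic GL261, the first 2 from co-culture, without overlap with the next group, and Jund alone, with overlap. Egr3 (59.5 CPM, BMDM alone in hypoxia) and Fosl1 (82.1 CPM, BMDM with panobinostat) overlapped the next group as well. Ccdc85b, opposite Fosl1, averaged 123 CPM in BMDM with panobinostat and 24.7 CPM in hypoxic BMDM with DMSO. Egr1 in GL261 from hypoxic co-culture, 335 to 586 CPM, lay above every library of every other group. Per kilobase of exon, which allows genes to be compared, Junb led in hypoxic BMDM alone with 690 CPM per kilobase, followed by Fos and Atf3 with 481 each and Jun with 276. In hypoxic BV2 alone Jun led with 193, followed by Junb with 140, Atf3 with 125 and Jund with 121, and Fos had 14.4. In hypoxic GL261 alone Jund had 349, Junb 262, Jun 242, Atf3 113 and Fos 89.4. Fos therefore ranked high among the members in BMDM and far below the JUN genes in BV2.

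Across the 18 group means, each centred within its cell type and experiment, Fosl2 and Atf3 varied most alike (Pearson r = 0.97), followed by Fosl2 with Jun and Jun with Junb (0.95 each), Fosl2 with Junb (0.93), Junb with Atf3 (0.92) and Fosb with Atf3 (0.91). Fosl1 ran from -0.28 with Fos to 0.31 with Egr3, and Egr3 ran from -0.02 with Jun to 0.46 with Fosb. These are descriptions over 18 points that share libraries and the hypoxia contrast. Among 9791 genes that passed the filter in all 5 fits, those most like Fos were Zfp36 (0.90), which encodes an mRNA-destabilising protein, Zfhx3 (0.85) and Zfp954 (0.85). Those most like Atf3 were P4ha1 (0.99), a collagen prolyl hydroxylase subunit, Ankzf1 (0.98) and Spty2d1 (0.98). Egr1 did not pass the filter in all 5 fits and has no such list.

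Related genes were read from lists of the same pathway. Of the other immediate early genes 20 of 28 tested rose and 3 fell in hypoxic BV2 alone (30.9% and 31.0% of all genes), with Ier3, a survival gene, up most (4.26, SE 0.15, adjusted p = 7.28e-12) and Srf, the serum response factor, down by -1.03 (SE 0.13, adjusted p = 5.43e-06). In GL261 alone 16 of 28 rose and 1 fell (23.2% and 21.4% of all genes), with Gadd45b leading (3.95, SE 0.33, adjusted p = 8.42e-06), and in BMDM alone 13 of 29 rose and none fell (13.3% and 10.6%), led by Ier3 (4.60, SE 0.79, adjusted p = 0.00251). Of the other bZIP genes, which pair or compete with AP-1 proteins, 12 of 16 rose in BV2, 9 of 15 in GL261 and 8 of 17 in BMDM, and 3, 1 and none fell, to be read against the same shares of all genes. Maff, a small MAF protein, led that list in all 3 (3.53, SE 0.18 in BV2, 3.90, SE 0.30 in GL261 and 3.79, SE 0.26 in BMDM). Batf3, which pairs with JUN proteins, fell in BV2 (-2.60, SE 0.26, adjusted p = 3.17e-07).

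Genes linked to ATF4, the activator of Atf3 in the integrated stress response, rose in 9 of 10 in BV2 alone, 9 of 10 in GL261 alone and 8 of 10 in BMDM alone, with none lower, where 30.9%, 23.2% and 13.3% of all genes rose. Trib3, a stress pseudokinase, led in BV2 (5.05, SE 0.18, adjusted p = 6.4e-12) and in BMDM (5.96, SE 0.35, adjusted p = 7.1e-06), and Ddit3, which encodes CHOP, in GL261 (3.44, SE 0.20, adjusted p = 8.66e-07). In the DMSO-treated BMDM of the second experiment, where no member passed, 3 of these 10 did, led by Ddit3 (5.14, SE 0.49, adjusted p = 0.0425). Of the kinases and ternary complex factors that act on Fos and Egr1, 6 of 20 rose and 4 fell in BV2, 5 and 2 in GL261, and 3 and 2 in BMDM, with shares of risers near those of all genes (30.9%, 23.2% and 13.3%). Phosphatases and other feedback inhibitors of the MAP kinases rose in 8 of 14, 7 of 14 and 5 of 14, and fell in 2, 1 and 1. Dusp1, itself an immediate early phosphatase, led in BV2 (4.54, SE 0.20, adjusted p = 6.38e-11), Dusp8 in GL261 (2.91, SE 0.20, adjusted p = 2.35e-06) and Dusp5 in BMDM (2.22, SE 0.30, adjusted p = 0.00076). Nab2, a co-repressor of EGR proteins, rose in BV2 (0.89, SE 0.13, adjusted p = 1.38e-05), while neither of the 2 EGR co-repressors passed in GL261 or BMDM alone. Of the textbook targets of AP-1 8 of 16 rose and 4 fell in BV2, 5 of 13 and 2 in GL261, and 7 of 19 and 1 in BMDM, where the shares of all genes were 30.9% and 31.0%, 23.2% and 21.4%, and 13.3% and 10.6%. Mmp13, a collagenase, rose in BV2 from a mean of 0.0446 to 6.43 CPM, and the chemokine Ccl2 fell there (-2.47, SE 0.28, adjusted p = 1.28e-06).

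With glioma contact the other immediate early genes rose in 9 of 28 and fell in 1 in normoxic BV2 (5.77% and 9.14% of all genes), and 8 and 1 in hypoxic BV2 (8.13% and 7.57%). Hbegf, a growth factor and AP-1 target, was higher in hypoxic BV2 from contact (1.94, SE 0.17, adjusted p = 1.24e-06) and in BMDM at both oxygen levels (4.46, SE 0.74, adjusted p = 0.0164, and 3.32, SE 0.58, adjusted p = 0.0111). In hypoxic GL261 from contact 1 of 28 other immediate early genes rose and 2 fell (0.889% and 0.5% of all genes). The riser was Egr2, a close relative of Egr1 and Egr3 (1.5, SE 0.27, adjusted p = 0.0262). Of the 2 EGR co-repressors 1 rose, Nab2 (0.71, SE 0.12, adjusted p = 0.018). Of 14 feedback inhibitors 2 rose and none fell, among them Spry2, which acts on ERK (0.82, SE 0.14, adjusted p = 0.018). Zfp36, the gene most like Fos in pattern, shared the smaller hypoxic change in co-cultured BV2, with an interaction of -1.74 (SE 0.23, adjusted p = 0.00296). Its likeness to Fos was taken from group means that include these BV2 groups, so the shared direction is not separate support. Under panobinostat in BV2 2 of 28 other immediate early genes rose and 2 fell, near the shares of all genes (7.21% and 7.39%), with Nr4a1, an orphan nuclear receptor, up beside Fos and Junb (2.36, SE 0.44, adjusted p = 0.00975). Atf4 itself fell by 0.82 on the log2 scale (SE 0.23, adjusted p = 0.0447), Mafg fell by 1.04 (SE 0.24, adjusted p = 0.0211), and Ccl2 rose (2.57, SE 0.52, adjusted p = 0.0131). Of the AP-1 targets 3 of 15 rose and none fell with panobinostat in BV2, and in BMDM no gene of any list passed.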

How the data were processed

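The deposited values are raw counts for 55487 Ensembl genes, held in 3 tables whose columns are single libraries, and the authors pooled no replicates in them as far as the column names show. Per the labels' protocols, stranded KAPA libraries of poly(A) RNA were read as 151-base pairs on a NovaSeq instrument. The submitters' processing notes name Trimmomatic 0.36, STAR 2.6, Picard 2.17.1, SAMtools, HTSeq 0.9.1, deepTools and the build mm10, without the role or settings of each. The annotation release and the strand setting are not given in the sources used here.

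Symbols were matched for 55141 identifiers. Counts were tested with edgeR 4.0.16 (R 4.3.3): TMM scaling, the filterByExpr filter (minimum count 10, minimum total 15), quasi-likelihood F tests and Benjamini-Hochberg adjustment over all genes of a fit, called at an adjusted p under 0.05. Every group of 1 cell type in 1 table entered the same fit, which pooled their spread. Differences between hypoxia effects, or between panobinostat effects, were interaction terms. The SE is the log2 fold change divided by the square root of F. The scripts were tested on simulated data. No pair of the 22 replicate pairs agreed within sampling noise (chi-square per degree of freedom 6.12 to 141.1). With 9634700 to 27238933 counts per library, and no molecular identifiers stated, limits of 3 counts cover counting error only.

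The 10 members and the gene lists were chosen with earlier results of these data known. All members are described in the comparisons, some by their range, and of each list at most the called gene with the largest rise and the one with the largest fall. Genes like Fos, Egr1 and Atf3 are the 3 with the highest correlation. The partner RNA share is the median ratio over genes of at least 20 CPM and 100-fold higher in the partner.

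Replicate numbers come from the titles. Libraries of the same number were correlated in their deviations from their own group mean, and in the 1 comparison with 3 pairs, hypoxic against normoxic BMDM co-cultures, all correlations were over 0.1 (0.455, 0.244 and 0.407), so the replicate block is given beside the results it changes there. All other comparisons had 2 pairs, too few for that check, with correlations of 0.336 to 0.593 in BMDM and 0.154 to 0.389 in BV2 of the second experiment, 0.0433 to 0.369 in GL261 -0.0807 to 0.175 in BV2 and -0.00185 to 0.224 in BMDM of the first, and the labels do not say that a number marks a shared culture. Alternatives were DESeq2 1.42.0 and its size factors, no filter, a minimum mean CPM of 5, each library left out, the replicate block, genes high in the partner left out and the partner share subtracted. The subtraction with the co-culture profile was added after the data were seen.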

Additional observations from a re-analysis of the deposited data

Results flagged for a closer look

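For 6 member and comparison pairs the test of the difference between hypoxia effects passed, and each was therefore looked at again. The rise of Fos in BV2 was smaller with glioma contact than without, by -1.56 on the log2 scale, and that of Junb by -0.82. Between the BV2 and GL261 monocultures the hypoxia effects differed by -3.90 for Fosl1, -1.47 for Atf3, -1.46 for Egr3 and 0.95 for Jun. Fosl1 and Egr3 fell in BV2, Fosl1 rose in GL261, and Atf3 and Jun rose in both lines. All groups held fewer than 4 libraries, so no single library was tested for distance from the others of its group.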

How the results depend on the processing

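No member's call changed sign. The 85 calls gave 912 values under the alternatives, of which 840 kept the call and 72 lost it (58 of 379 with 1 library left out, 14 of 533 otherwise), and 62 calls held throughout. Settings in which a member gave no value, by failing the filter or being left out, were not counted as losses. The Egr1 calls in BV2 are thus among the 62, although Egr1 gave no value there after subtraction with the co-culture profile. Groups of 2 limit the precision, and low members such as Egr1 in BV2 are also limited by depth.

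Members called, by setting, with the count under the settings of the report first. The share of all genes called under each setting is not given beside most of the counts here and below. With DESeq2: BMDM contact in hypoxia 0 and 1 (also 1 with its size factors), BMDM hypoxia with DMSO 0 and 3, hypoxia in BV2 against BMDM 0 and 4, panobinostat in BMDM 0 and 1 and in BV2 2 and 5, and panobinostat in BV2 against BMDM 0 and 1. With a mean CPM of at least 5: BMDM contact in hypoxia 0 and 1 and in normoxia 1 and 0, GL261 contact in hypoxia 2 and 1 and in normoxia 1 and 0, hypoxia in BV2 against BMDM 0 and 1. With no filter: BMDM contact in hypoxia 0 and 2 and in normoxia 1 and 4, GL261 contact in normoxia 1 and 2, BMDM hypoxia with DMSO 0 and 4, hypoxia in BV2 against BMDM 0 and 7, the BMDM interaction 0 and 2, panobinostat in BMDM 0 and 3 and in BV2 2 and 7, and in BV2 against BMDM 0 and 5. Without a filter many more genes of all kinds were called in the second experiment's BMDM, 3259 in place of 72 under hypoxia, with Fosb among them; the cause was not tested.

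With the replicate block, which the pairing check could be met for only in the BMDM co-cultures: BMDM contact in hypoxia 0 and 1 and in normoxia 1 and 2, BMDM hypoxia with DMSO 0 and 1, hypoxia in BV2 against BMDM 0 and 2, and panobinostat in BV2 2 and 6. With the partner share subtracted, either profile: BMDM contact in normoxia 1 and 0, and GL261 contact in normoxia 1 and 0. BV2 contact in hypoxia went from 6 to 3 with the co-culture profile. Leaving out genes high in the partner gave 3 there, 4 of 7 in BV2 contact in normoxia, and 1 of 2 in the BV2 interaction, where it removes Fos, Fosb and Egr1 by construction. It gave 0 of 1 in BMDM and GL261 contact in normoxia, where Egr3 and Fos were kept with the same log2 values but adjusted over fewer genes.

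With each library left out in turn, counts ran from 4 to 5 for hypoxia in BMDM alone (7 with all), 7 to 9 from co-culture (7), 8 to 9 in BV2 alone (9), 8 to 10 from co-culture (9), 8 to 9 with DMSO (9), 8 to 9 in GL261 alone (9) and 9 to 10 from co-culture (10). For contact they were 4 to 7 in normoxic BV2 (7), 2 to 5 in hypoxic BV2 (6), 0 to 0 in normoxic GL261 (1), 0 to 2 in hypoxic GL261 (2) and 0 to 0 in normoxic BMDM (1). For differences they were 1 to 3 in the BV2 interaction (2), 3 to 5 for BV2 against GL261 (4) and 0 to 3 for BV2 against BMDM (0), and 1 to 3 for panobinostat in BV2 (2). All other comparisons stayed at 0 with each library left out. Where 1 library remained in a group, it was taken to vary like the other groups of its fit.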
